A study of Arabidopsis thaliana with 12 samples.

Results

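The transcripts described here are those of the mitochondrial genome of *Arabidopsis thaliana*, which the count tables list under locus identifiers that begin with ATMG. Of the 152 ATMG loci among the 37336 loci counted, 35 had a summed count of at least 10 over all 12 libraries, and these 35 were taken as members. A further 23 loci had between 1 and 9 counts in all, and 94 loci had no count in any library. ATMG01330 with 10 counts and ATMG00570 with 19 lay just inside the limit, and ATMG01100 with 9 counts and ATMG00120 and ATMG00830 with 8 each lay just outside it.

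RNA-Seq was performed on whole 4-day-old seedlings of the Col-0 background, with 3 independent samples per group. The groups were wild-type (WT) seedlings kept at 23 °C, WT moved to 29 °C during the last 6 h, seedlings at 23 °C of the line OE *APOLO*-1, in which the 35S promoter drives the long noncoding RNA *APOLO*, and seedlings at 23 °C of *vim1-3*, a T-DNA insertion mutant of *VIM1*, which codes for a methylcytosine-binding protein. OE *APOLO*-1 and *vim1-3* are each a single line, so that an effect of the genotype and of that line cannot be told apart. The samples of each group carry the letters A, B and C, and what samples of 1 letter share across groups is not given. Samples of the same letter were not more alike across groups than others, which cannot exclude a pairing.

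Plant mitochondria keep a small genome of their own, which codes for subunits of the respiratory chain complexes and of ATP synthase, for factors of cytochrome c maturation, for ribosomal proteins and for ribosomal and transfer RNAs, beside many open reading frames with no known role. The other proteins of the organelle are encoded in the nucleus and imported. In plant organelles a poly(A) tail marks an RNA for decay rather than for translation, and the libraries were made from RNA selected by its poly(A) tail, so that the counts below cannot be told apart into more transcript, more of it carrying a tail, or more of it carried through the selection. In whole seedlings, fewer mitochondria and less RNA per mitochondrion cannot be told apart either.

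Library totals lay between 8824476 counts (WT at 23 °C, C) and 22925019 counts (*vim1-3*, A), and 20664 loci passed the filter on low counts. *VIM1* had 5, 3 and 1 counts in the *vim1-3* libraries and between 56 and 241 in the others. *APOLO* had 4984 to 11720 counts in OE *APOLO*-1, yet library A of WT at 23 °C held 1197 *APOLO* counts where libraries B and C held 2 and 1, and on the first principal component, which took 58.1% of the variance, it lay at -29.7 against -149 and -103 for B and C, and between these and the other 9 libraries (0.33 to 55.1). Library B of *vim1-3* stood apart by its organelle counts, as described next. Values without these libraries are given beside the comparisons they enter.

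In all, 12472 counts fell on ATMG loci, out of 214971655, and 99.4% of them on the members. The share was small and uneven. At 23 °C in WT, ATMG counts per 1000000 counts of the library (CPM) were 107 in library A, 99.0 in B and 38.4 in C. For WT at 29 °C the values were 79.6, 32.6 and 71.8. OE *APOLO*-1 had 25.3, 36.3 and 23.9, the most even of the groups. In *vim1-3* libraries A and C were low, at 23.8 and 26.4, and library B was the highest of all, at 160 (95% Wilson interval 153 to 167). The share thus differed up to 6.72 times between samples of 1 group, beyond counting error, since even the widest interval in proportion, that of the WT library C at 23 °C, ran from 34.5 to 42.7 only. Reads from PCR-amplified libraries without molecular identifiers are not independent molecules, so these intervals cover counting error only.

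**Figure D1:**
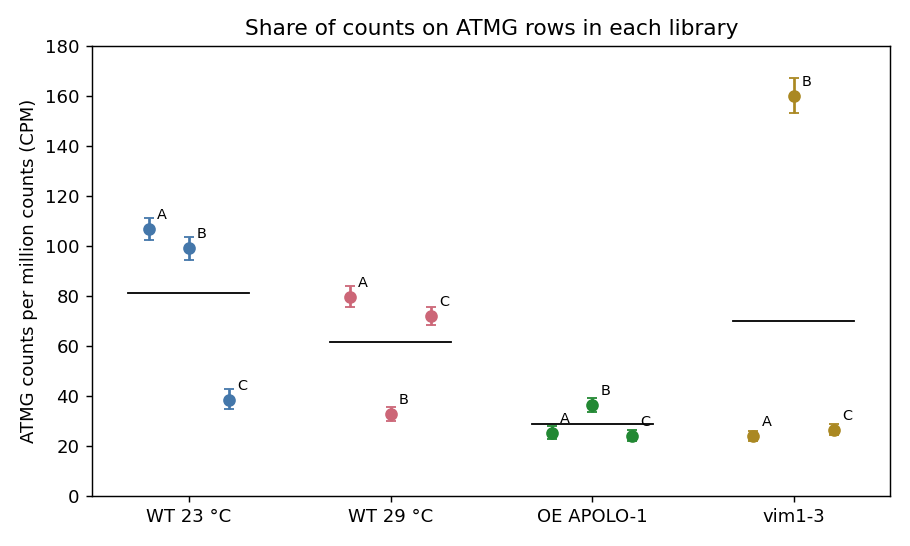
ATMG counts per 1000000 counts (CPM, y axis) in each library of the 4 groups (x axis), with letters naming the sample, error bars giving the 95% Wilson interval and black lines the group means. All 3 OE *APOLO*-1 libraries lie at or below 36.3, under the lowest WT library at 23 °C (38.4), and *vim1-3* B lies at 160 while *vim1-3* A and C lie at 23.8 and 26.4.

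The ATMG share was lower in OE *APOLO*-1 than in WT at 23 °C, with 28.5 ± 6.83 against 81.3 ± 37.3 CPM (mean ± SD, n = 3 each), a log2 ratio of -1.51. The groups did not overlap, but the highest OE *APOLO*-1 library (36.3) and the lowest WT library (38.4) were close to each other. By exact permutation (two-sided) p was 0.1, and 3 samples against 3 allow none smaller, and it was 0.6 after Benjamini-Hochberg adjustment over the 6 comparisons of groups. Without library A of WT at 23 °C the log2 ratio was -1.27.

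None of the other comparisons of the share separated the groups. WT at 29 °C had 61.3 ± 25.2 CPM, and its difference from WT at 23 °C was within the spread between samples (log2 ratio -0.41, exact permutation p = 0.5, n = 3 each, and -0.16 without WT library A). WT at 29 °C and OE *APOLO*-1 overlapped through the single library B at 29 °C (exact permutation p = 0.2). The mean of *vim1-3* was 70.0 ± 77.8, and its order against OE *APOLO*-1 and WT at 29 °C turned on library B. Against WT at 23 °C the log2 ratio was -0.22 with all libraries and ranged from -1.70 to 0.20 with any 1 library left out. It was -1.45 without library B and without WT library A, although with exact permutation p = 0.33, the smallest that 2 samples against 2 allow. Against OE *APOLO*-1, which had a log2 ratio of -1.30 to *vim1-3*, the direction turned to 0.18 without library B, and against WT at 29 °C it turned from -0.19 to 1.29 (WT at 29 °C over *vim1-3*).

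Counts of the plastid genome, listed under ATCG identifiers, rose and fell with the mitochondrial ones. Plastids, like mitochondria, keep their own genome, and their transcripts are likewise not stabilised by a poly(A) tail. The 133 ATCG loci took between 0.12% (WT at 29 °C, B) and 1.44% (*vim1-3*, B) of all counts. Over the 12 libraries the log10 shares of the 2 genomes gave Pearson's r = 0.96 (permutation p = 1e-05, the smallest that 100000 resamples can give) and Spearman's rho = 0.90 (permutation p = 2e-04). Without the samples farthest from the median ATCG share, *vim1-3* B and WT at 23 °C A, r was 0.93 over 10 libraries. Within groups, deviations from the group mean gave r = 0.99 with all 12 libraries. *vim1-3* B lay far from the other *vim1-3* libraries in both shares, and the within-group r without it was not computed. Both shares have the library total as denominator and come from the same library, so the relation is not one between separate measurements. Library totals did not move with the ATMG share (r = -0.18 on log10 scales). Nuclear small noncoding RNA genes, transcripts that mostly lack a poly(A) tail, took 30.6 to 77.0 CPM in 11 libraries and 195 in *vim1-3* B, the library with the highest organelle shares. This share gave r = 0.53 with the ATMG share over all 12 libraries, *vim1-3* B included, and r without *vim1-3* B was not computed. The next highest small noncoding RNA share, 77.0 CPM in OE *APOLO*-1 C, went with a low ATMG share of 23.9 CPM. The part of poly(A) selection in these differences was not tested.

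**Figure D2:**
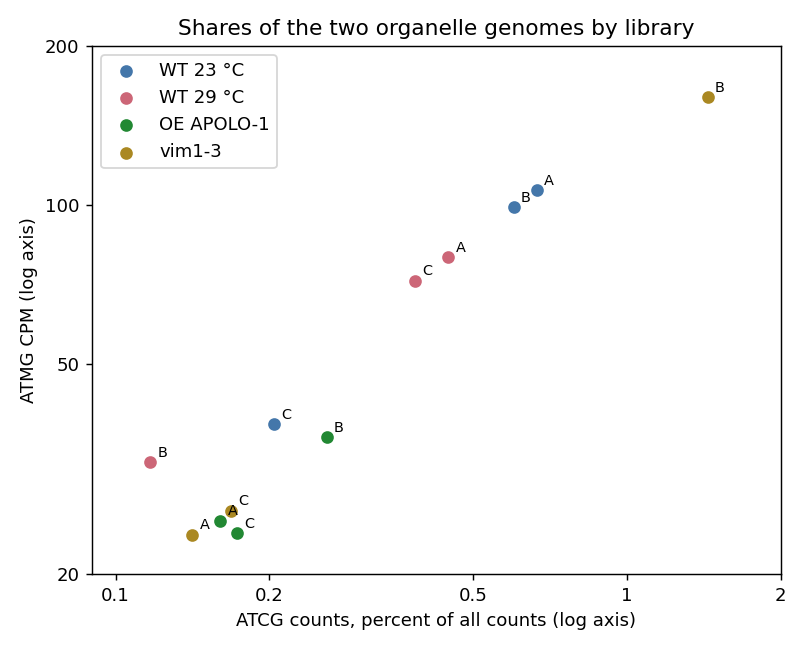
ATMG CPM (y axis, log) against the percent of counts on ATCG loci (x axis, log) in the 12 libraries, coloured by group, with letters naming the sample. The points lie along 1 band, from *vim1-3* A at 23.8 CPM and 0.14% to *vim1-3* B at 160 CPM and 1.44%, with WT at 29 °C B above it (32.6 CPM at 0.12%).

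The ratio of the 2 genomes varied less than either share. ATMG counts per 1000 ATCG counts ranged from 11.1 (*vim1-3*, B) to 27.9 (WT at 29 °C, B), a 2.51-fold range, where the ATMG share alone ranged over 6.72-fold and the ATCG share over 12.3-fold. The ratio was 16.0, 16.5 and 18.8 for WT at 23 °C. For OE *APOLO*-1 it was 15.8, 14.0 and 13.8, below every WT library at 23 °C. For WT at 29 °C it was 17.8, 27.9 and 18.7, above every OE *APOLO*-1 and every *vim1-3* library (16.8, 11.1 and 15.7 in the latter). These 3 separations each gave an exact permutation p = 0.1 (n = 3 each, two-sided), the smallest possible, and 0.2 after adjustment over 6 comparisons. The WT means were 17.1 ± 1.49 at 23 °C and 21.5 ± 5.61 at 29 °C, and those of OE *APOLO*-1 and *vim1-3* were 14.5 ± 1.06 and 14.5 ± 3.03. Against a 2.85-fold difference in ATMG share, OE *APOLO*-1 and WT at 23 °C thus differed 1.17-fold in this ratio.

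The members were few in reads, and a handful carried most of them. The 7 loci with the most counts, ATMG00090, ATMG01360, ATMG00640, ATMG00070, ATMG00080, ATMG00160 and ATMG00060, held 70.7% of all ATMG counts, with 1981, 1613, 1164, 1144, 1054, 983 and 874 counts over the 12 libraries. ATMG00650 with 519 counts, ATMG01380 with 417 and ATMG00660 with 275 followed. In all, 20 members had 100 counts or more and 15 had fewer, and 22 were detected in every library. The reference annotation used here gives the mitochondrial genes identifiers of its own, and none of the 152 ATMG identifiers is paired with one, so the loci are given by identifier and no lengths were at hand to compare levels between loci. Where ATMG loci overlap, their reads may be split or lost, since the strand setting of the counting is not given in the sources used here.

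For a few loci, notes on nuclear genes in the RefSeq annotation name the ATMG locus as the best protein match. The 4 members with such a protein match are ATMG01320 (NADH dehydrogenase 2B, a part of respiratory complex I, with 111 counts), ATMG00560 (a nucleic acid-binding protein with an OB-fold, 65 counts), ATMG01090 (ATP synthase 9, the subunit that forms the membrane ring of ATP synthase, 32 counts) and ATMG01220 (an unknown protein, 20 counts). ATMG01320 had 16, 13 and 3 counts in WT at 23 °C, 18, 7 and 11 at 29 °C, 2, 10 and 3 for OE *APOLO*-1 and 7, 17 and 4 in *vim1-3*. Its values overlapped between all groups. ATMG00560 had 13, 13 and 1 counts in WT at 23 °C, 11, 0 and 11 at 29 °C, 0, 2 and 2 in OE *APOLO*-1 and 1, 10 and 1 in *vim1-3*, and was low where the ATMG share was low.

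Loci that the notes name as subunits of the respiratory chain or of ATP synthase mostly had no counts. The note on AT2G07727 names ATMG00220 as apocytochrome b, the core subunit of complex III, and ATMG00220 had 0 counts in all 12 libraries. ATMG00730 (cytochrome c oxidase subunit 3, of complex IV) had 1 count in all, and ATMG01190 (ATP synthase subunit 1), ATMG00410 (ATPase subunit 6-1), ATMG00480 (subunit 8 of the F0 complex), ATMG00990 (NADH dehydrogenase 3) and the ribosomal protein loci ATMG00290 (S4), ATMG01270 (S7) and ATMG00210 (L5) had none. A count of 0 allows a share of up to 0.131 to 0.340 CPM, depending on the library. Of 53 ATMG loci that such notes tie to a nuclear gene, 5 were members (9.43%) and 40 had no count, and of the other 99 loci, 30 were members (30.3%). The 99 loci without a note held 97.9% of all ATMG counts.

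All 55 nuclear genes in these notes lie on chromosome 2. That chromosome of Arabidopsis carries a large insertion of mitochondrial DNA near its centromere. In the RefSeq assembly (TAIR10.1), 69.0% of all stretches of 75 bases of the mitochondrial genome, the read length of the libraries, also occurred without a mismatch in a nuclear chromosome, 68.9% on chromosome 2 and 1.06% on another one, and 7.97% occurred at more than 1 mitochondrial position. The mitochondrial sequence of this assembly is another one than that of TAIR10, the build given for the counts. The shares of the ATMG loci in the build used may therefore differ from those given here. Of 33 RefSeq mitochondrial coding genes, 20 had at least 90% of their stretches elsewhere in the nuclear or mitochondrial genome, 6 had under 10%, and 7 lay between. The genes *cob*, *cox3*, *atp1*, *atp8*, *atp9*, *nad3*, *rps4*, *rps7*, *rps12*, *rpl5*, *ccmC* and *ccmFC* each had 100% of their stretches elsewhere, and the 2 copies of *atp6* had 70.4% and 100%. By their products these are the counterparts of 13 ATMG loci in the notes, and those 13 loci together had 4 counts. Which copy of *atp6* matches ATMG00410 is not given. Not every such gene had a locus near 0. The gene *nad2* also had 100% of its stretches elsewhere, while ATMG01320 (NADH dehydrogenase 2B) had 111 counts, and of the loci that the notes name as subunit 9 of ATP synthase, ATMG01080 had 0 counts and ATMG01090 had 32. In contrast *cox1*, *nad4L*, *nad9*, *atp4* and *ccmB* had none of their stretches elsewhere. How the counting treated reads with several best positions is not given in the sources used here, and the part of such reads in the zero counts was not tested.

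**Figure D3:**
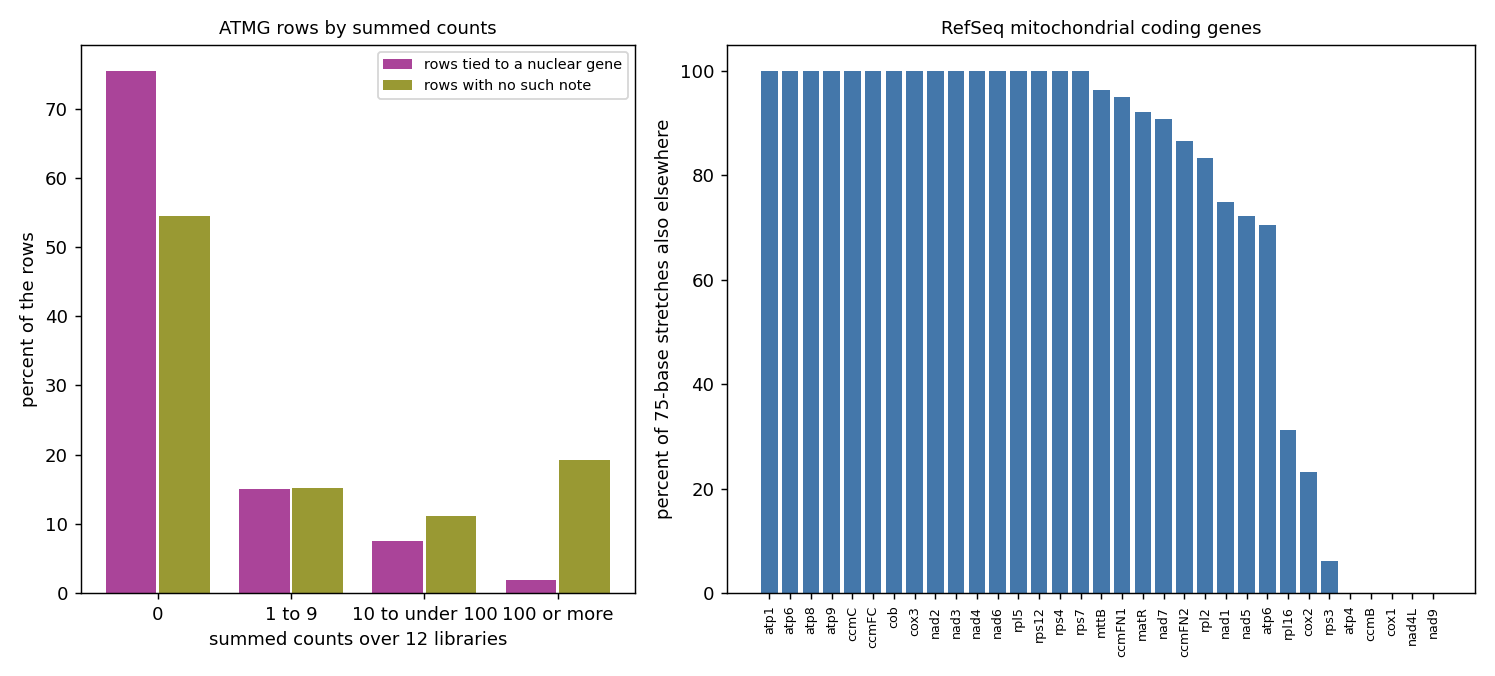
Left, percent of the ATMG loci (y axis) in classes of summed counts (x axis), for the 53 loci that a RefSeq note ties to a nuclear gene and the 99 with no such note. Right, percent of the 75-base stretches (y axis) that also occur elsewhere in the nuclear or mitochondrial genome for each of 33 RefSeq mitochondrial coding genes (x axis). Zero counts were found for 75.5% of the loci with a note and 54.5% of those without, and 100 counts or more for 1.89% and 19.2%.

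Nuclear genes that share sequence with ATMG loci had counts of their own. AT2G07698, whose note names ATMG01190 (ATP synthase subunit 1) as its match, had 464 counts while ATMG01190 had 0, and 96.7% of its 75-base stretches occur in the RefSeq mitochondrial genome. It had 108, 75 and 11 counts in WT at 23 °C, 49, 21 and 70 at 29 °C, 9, 12 and 15 in OE *APOLO*-1 and 14, 66 and 14 in *vim1-3*. In CPM it was highest in *vim1-3* B (5.23) and in WT at 23 °C A (5.15), the 2 libraries with the highest ATMG shares, and lowest in OE *APOLO*-1 A (0.60) and *vim1-3* A (0.61). Of the other nuclear genes in the notes, AT2G07727 (apocytochrome b) had 68 counts, AT2G07687 (cytochrome c oxidase subunit 3) 39 and AT2G07715 (34 counts) followed, and 16 of the 55 had any count. These counts are not part of the ATMG shares above.

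Single members were compared with edgeR's quasi-likelihood test, fitted to all loci and all 12 libraries, with Benjamini-Hochberg adjustment over the 20664 loci tested and a threshold of 0.01. Of the 35 members 22 passed the filter on low counts. Normalised counts below are counts divided by the effective library size and multiplied by its mean.

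In OE *APOLO*-1 against WT at 23 °C, 1 of 22 tested members fell, ATMG00660, where 10.3% of all loci tested were called in either direction and 7.68% were called lower. The call rate over all loci itself rested on single libraries, since it was 29.3% without WT library A (where ATMG00660 was again the only member called, of 24) and between 3.10% and 4.03% without any 1 of the OE *APOLO*-1 libraries. The normalised counts of ATMG00660 were 42.3, 47.4 and 19.5 in WT at 23 °C, 25.2, 23.9 and 35.1 at 29 °C, 10.2, 8.39 and 9.31 in OE *APOLO*-1 and 13.8, 28.6 and 12.2 in *vim1-3*. The OE *APOLO*-1 libraries were the lowest 3 of all and did not overlap with any other group. The log2 fold change against WT at 23 °C was -2.02 ± 0.41 (SE), with an edgeR adjusted p of 0.00498. This call rested on small counts (8, 9 and 10 in OE *APOLO*-1). The adjusted p (edgeR) rose to 0.0146 without WT library B, to 0.0101 without WT at 29 °C library A and to between 0.0202 and 0.0272 without any 1 of the OE *APOLO*-1 libraries, and was 0.0417 with only the 6 libraries compared, a fit in which 2 of 20114 loci were called. With the library's ATMG total as the scale, the log2 fold change was -0.40 (edgeR adjusted p = 0.593).

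No other member reached the threshold in the same comparison. Of the 22, 21 had a log2 fold change below 0, and 12 did not overlap between the groups, all lower in OE *APOLO*-1, where 18.4% of all loci tested were lower without overlap. The median log2 fold change was -1.57 against -0.03 over all loci. ATMG00080 had normalised counts of 168, 222 and 88.7 in WT at 23 °C and 41.9, 45.7 and 23.3 in OE *APOLO*-1, with a log2 fold change of -2.14 ± 0.49 (edgeR adjusted p = 0.0103). ATMG00090, the locus with the most counts, had 470, 347 and 104 against 62.2, 102 and 41.9, with a log2 fold change of -2.19 ± 0.54 (edgeR adjusted p = 0.0162). Both were separated between the groups, in ATMG00090 narrowly (104 against 102). ATMG01360, the locus next in counts, had 177, 192 and 80.0 against 90.2, 109 and 72.6, which overlapped, with a log2 fold change of -0.76 ± 1.02 (edgeR adjusted p = 0.641). ATMG01380 alone lay above 0, at 0.11 ± 1.07. With *vim1-3* B left out of the fit, which then estimates the spread from 11 libraries, 5 of 24 members (20.8%) were called lower, namely ATMG00080, ATMG00510, ATMG00650, ATMG00660 and ATMG01130, where 8.08% of all loci were called in either direction. *vim1-3* B stood apart by the organelle counts themselves and held the highest CPM of 24 of the 35 members. This difference in call rates is therefore not read as a test of the members. The same 5 were called with WT library A left out as well, but there 27.8% of all loci were, so that the members' share was below that of all loci. On the ATMG total as the scale, no member was called in this comparison (5 of 22 at an unadjusted p under 0.05) and the median was 0.05.

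Of 80 ATCG loci tested none was called in OE *APOLO*-1 against WT at 23 °C (edgeR), where 10.3% of all loci tested were called. At an unadjusted p under 0.05 (edgeR) were 53 of the 80, and 7511 of all 20664 loci tested. A log2 fold change below 0 was found for 79 of the 80 and for 11032 of all loci, and the median of the 80 was -1.99.

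**Figure D4:**
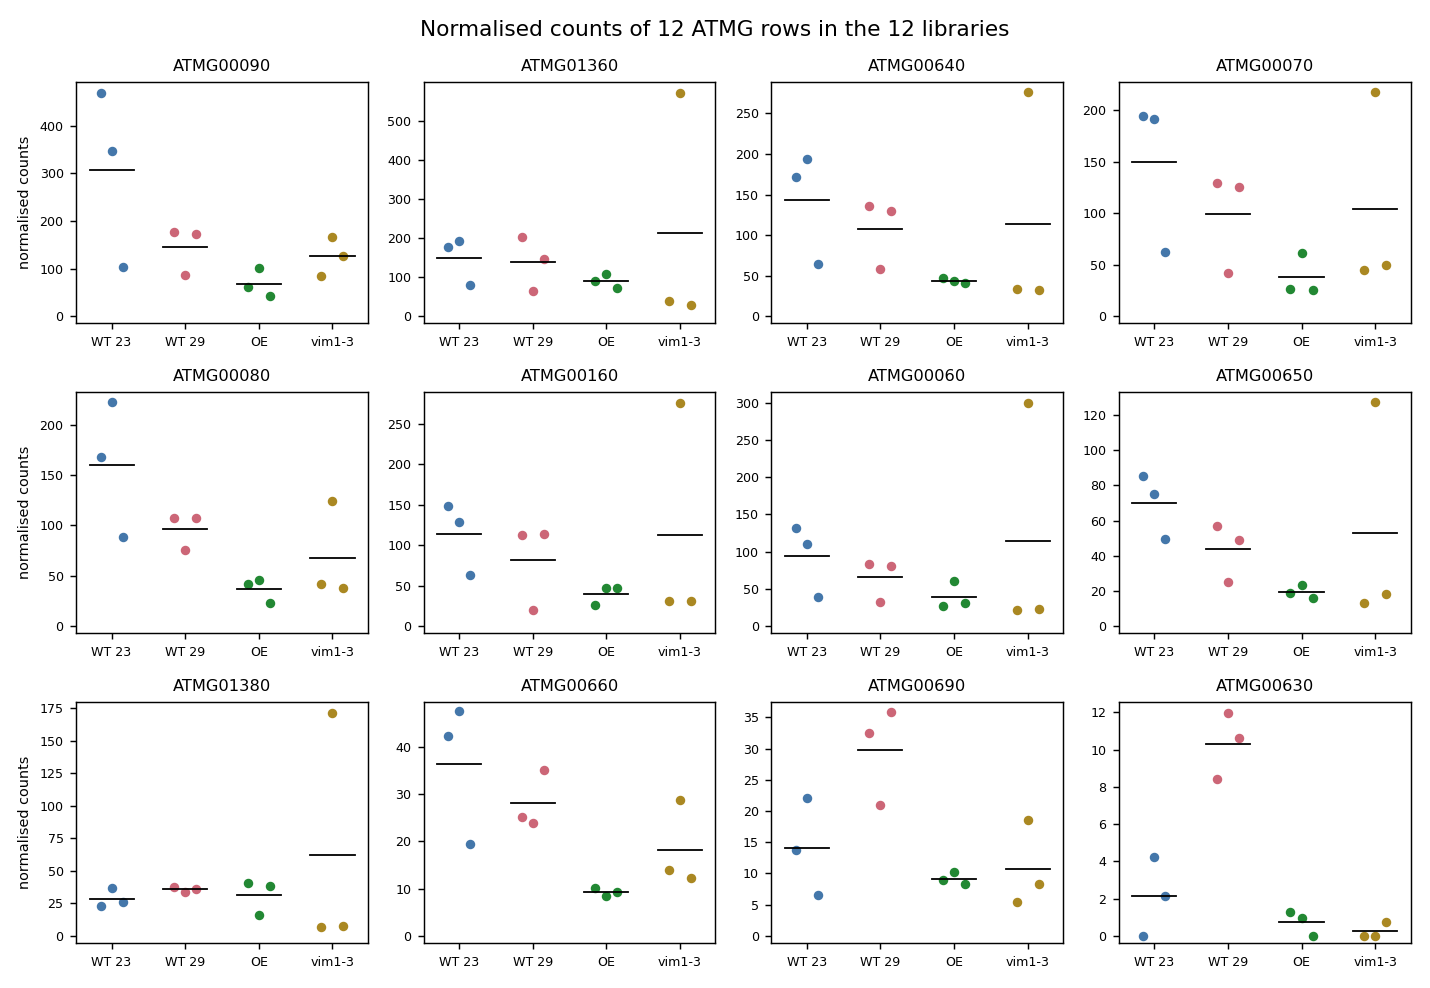
Normalised counts (y axis, a scale for each panel) of 12 ATMG loci in the 12 libraries by group (x axis; WT at 23 °C, WT at 29 °C, OE *APOLO*-1, *vim1-3*), with points for libraries A, B and C from left to right and black lines for the group means. *vim1-3* B is far above *vim1-3* A and C in ATMG01360 (571 against 38.4 and 27.4) and most others, whereas ATMG00690 and ATMG00630 are highest in WT at 29 °C.

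Between WT at 29 °C and at 23 °C no member was called by edgeR (1 of 22 at an unadjusted p under 0.05, 0 by DESeq2), where 20.6% of all loci tested were called, and no member's groups were without overlap, where 43.9% of all loci had none. Without WT library A none of 24 members was called either, where 34.1% of all loci were. The median log2 fold change of the members was -0.48, and 19 of 22 were below 0. Of 80 plastid loci 1 was called, lower, and their median was -1.55.

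ATMG00690 took a larger share of the ATMG counts at 29 °C than in any other library, and is described because of its values. Its normalised counts were 13.8, 22.1 and 6.49 in WT at 23 °C, 32.6, 20.9 and 36.0 at 29 °C, 8.89, 10.3 and 8.38 in OE *APOLO*-1 and 5.37, 18.6 and 8.37 in *vim1-3*. The libraries at 29 °C were above every OE *APOLO*-1 and *vim1-3* library and overlapped with WT at 23 °C through library B of each. As a share of ATMG counts it took 2.33%, 3.54% and 2.92% at 29 °C, above each of the other 9 libraries (0.64% to 1.91%). Against WT at 23 °C the log2 fold change was 0.98 ± 0.44 (edgeR adjusted p = 0.102), and with the ATMG total as the scale 1.62 (edgeR adjusted p = 0.00542). The latter scale was chosen after the data were seen. It asks for change relative to the other ATMG loci and not for change in level.

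ATMG00630 had too few counts to pass the filter, and is given because of its values. It had 0, 4 and 1 counts in WT at 23 °C, 8, 12 and 13 at 29 °C, 1, 1 and 0 in OE *APOLO*-1 and 0, 0 and 1 in *vim1-3*. All 3 libraries at 29 °C were thus above the other 9, with 33 of the locus's 41 counts. It was called in some fits with another filter or fewer libraries, but it enters those through the libraries at 29 °C and was singled out for its values, so these calls are not read as a test.

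In *vim1-3* against WT at 23 °C no member was called by edgeR (3 of 22 at an unadjusted p under 0.05, 0 by DESeq2), where 6.63% of all loci tested were called, and none was without overlap, where 36.2% of all loci were. The median was -0.26 and the spread within *vim1-3* was wide. ATMG01360 had normalised counts of 38.4, 571 and 27.4 in *vim1-3* A, B and C, ATMG00060 had 21.5, 301 and 22.8, and ATMG01380 had 6.90, 172 and 7.61. Library B held the highest CPM of 24 of the 35 members over all libraries. Without WT library A no member was called and 26.8% of all loci were. Without both libraries, 4 of 24 members (16.7%) were called lower in *vim1-3* (ATMG00080, ATMG00510, ATMG00650 and ATMG01380), below the 23.1% called over all loci, and the median was -1.83.

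The composition of library B also differed from the other *vim1-3* libraries. ATMG00090 took 5.75% of its ATMG counts, against 20.2% and 27.7% in A and C, and ATMG01360 took 19.8% against 9.17% and 6.01%. ATMG00090 was thus at its lowest share of the 12 libraries in B and at its highest in C. ATMG00640, in contrast, kept between 6.98% and 10.6% of ATMG counts in every library. The widest span in proportion among the 10 loci with the most counts was that of ATMG01380, from 1.21% (WT at 23 °C, A) to 8.69% (OE *APOLO*-1, C).

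OE *APOLO*-1 and *vim1-3* were not separated by any called member (edgeR, 1 of 22 at an unadjusted p under 0.05, 0 by DESeq2), where 1.87% of all loci tested were called. All 22 had a log2 fold change below 0 (OE *APOLO*-1 over *vim1-3*) with a median of -1.24, and 2 were lower without overlap, ATMG00660 and ATMG01130, where 19.5% of all loci were. With *vim1-3* B and WT library A left out the median turned to 0.29 and 1 of 24 members was called, ATMG01380, higher in OE *APOLO*-1, where 5.09% of all loci were called.

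WT at 29 °C had higher values than OE *APOLO*-1 in 21 of 22 members, with a median of 1.17. No member was called (edgeR, 3 of 22 at an unadjusted p under 0.05, 0 by DESeq2), where 8.17% of all loci tested were called, and 8 were higher without overlap, where 21.2% of all loci were. The lowest edgeR adjusted p-values were 0.0198 for ATMG00660 and 0.0246 for ATMG00690, the latter with a log2 fold change of 1.69 ± 0.46. Both were called with only the 6 libraries compared in the fit (4 of 17 members called, where 17.1% of all loci were) and without WT at 23 °C library A (3 of 24 called, 12.5%, ATMG00630 among them, where 17.4% of all loci were).

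Against *vim1-3*, WT at 29 °C had 0 called members by edgeR (1 of 22 at an unadjusted p under 0.05, 1 by DESeq2, which was ATMG00630), where 13.6% of all loci tested were called, and a median of -0.17. ATMG00690 was the only member higher without overlap, where 26.6% of all loci were, with a log2 fold change of 1.58 ± 0.45 (edgeR adjusted p = 0.0230). Without *vim1-3* B the median was 1.45 and 1 of 24 members was called, ATMG01380, where 7.34% of all loci were.

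**Figure D5:**
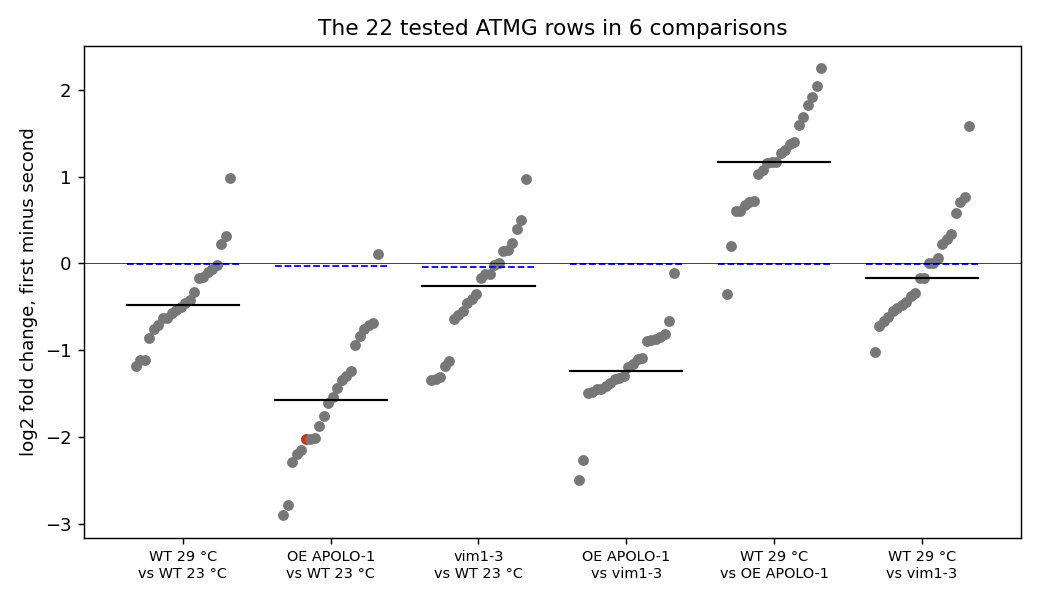
Log2 fold changes (y axis, first group minus second) of the 22 tested ATMG loci in the 6 comparisons (x axis), sorted within each. The called locus, ATMG00660 in OE *APOLO*-1 against WT at 23 °C, is red, black lines are medians of the 22 loci and blue dashed lines medians of all 20664 loci tested. The members lie mostly below 0 where OE *APOLO*-1 is compared with WT at 23 °C (median -1.57) or with *vim1-3* (median -1.24).

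Of 17 nuclear genes that act on organelle RNA or DNA, 2 were called at 29 °C, where 20.6% of all loci tested were, and none in OE *APOLO*-1 or *vim1-3* against WT at 23 °C, where 10.3% and 6.63% were. Of 3 organelle RNA polymerase genes, 1 rose at 29 °C, *SCA3*, the plastid polymerase (log2 fold change 0.48 ± 0.11, edgeR adjusted p = 0.00569), and AT1G68990, a polymerase of mitochondria, had -0.31 ± 0.15 at 29 °C and -0.56 ± 0.15 in OE *APOLO*-1 (edgeR adjusted p = 0.121 and 0.0180). Of 9 genes of mitochondrial RNA decay and splicing, 1 rose at 29 °C, *PMH1*, a mitochondrial RNA helicase (0.41 ± 0.10, edgeR adjusted p = 0.00695), and of 5 genes of mitochondrial DNA maintenance none was called. The medians over the 3 lists ranged from -0.32 to 0.26 in the comparisons with WT at 23 °C. The calls of *SCA3* and *PMH1* were lost under 6 and 11 of 23 alternatives, that of *PMH1* also without WT library A (edgeR adjusted p = 0.0142).

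Among 9 nuclear genes of alternative respiration and mitochondrial stress, 7 were tested, 5 fell and 1 rose at 29 °C, with a median of -1.49, where 20.6% of all loci tested were called. Alternative oxidase passes electrons to oxygen past complexes III and IV, and *AOX1A* is the form best known to respond to mitochondrial stress. The normalised counts of *AOX1A* were 1562, 2570 and 2447 in WT at 23 °C, 724, 725 and 664 at 29 °C, 1244, 1338 and 1369 in OE *APOLO*-1 and 1493, 1762 and 1605 in *vim1-3*. Its log2 fold change was -1.64 ± 0.15 at 29 °C (edgeR adjusted p = 2.75e-05) and -0.73 ± 0.15 in OE *APOLO*-1 (edgeR adjusted p = 0.00516), and the call in OE *APOLO*-1 was lost under 7 of 23 alternatives (adjusted p up to 0.0706, with only the 6 libraries compared). Without WT library A the values were -1.83 and -0.93. *NDB2*, an NAD(P)H dehydrogenase outside complex I, had normalised counts of 291, 1252 and 1175 in WT at 23 °C and 142, 141 and 120 at 29 °C. Its log2 fold change was -2.75 ± 0.46 (edgeR adjusted p = 0.00144), or -3.18 without WT library A. In OE *APOLO*-1 it had 293, 315 and 230 and in *vim1-3* 281, 322 and 319, so that WT library A lay within both ranges. It was not called in either (log2 fold changes -1.69 and -1.55, edgeR adjusted p = 0.0209 and 0.0329).

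The normalised counts of *AOX1D* were 57.0, 969 and 800 in WT at 23 °C, 1.05, 1.99 and 0.82 at 29 °C, 24.1, 14.9 and 16.8 in OE *APOLO*-1 and 18.4, 21.5 and 9.13 in *vim1-3*. At 29 °C *AOX1D* had only 1, 2 and 1 counts. It was called lower in all 3 groups (edgeR adjusted p = 0.000842 at 29 °C, 0.00497 in OE *APOLO*-1 and 0.00644 in *vim1-3*). The calls were lost under 1, 7 and 14 of 22 alternatives in that order, with adjusted p up to 0.0137, 0.0542 and 0.0637, but not without WT library A. The WT libraries at 23 °C ranked by *AOX1D* as they did by their distance from the other groups on the first principal component, with A nearest and B farthest. *AOX2* went the other way, with 2, 2 and 0 counts in WT at 23 °C and 15, 18 and 20 at 29 °C (edgeR adjusted p = 0.000336). *UPOX* (AT2G21640) fell at 29 °C (log2 fold change -1.49 ± 0.25, edgeR adjusted p = 0.000821). Its normalised counts in WT at 23 °C were 109, 55.9 and 77.9, highest in library A, unlike *AOX1D*. In OE *APOLO*-1 and *vim1-3* its log2 fold changes were -0.24 and 0.20 (edgeR adjusted p = 0.498 and 0.580). In OE *APOLO*-1 3 of the 7 tested genes fell (*AOX1D*, *AOX1A* and *NAC13*, a transcription factor of the mitochondrial stress response). There 10.3% of all loci tested were called in either direction and 7.68% were called lower. In *vim1-3* 1 of the 7 fell (*AOX1D*), where 6.63% of all loci tested were called in either direction. The call of *NAC13* was lost under 17 of 23 alternatives in OE *APOLO*-1 (adjusted p up to 0.0806) and under 12 of 23 at 29 °C. These comparisons share the WT libraries at 23 °C.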

How the data were processed

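The deposited files hold raw counts per locus, 1 file per library. According to the paper's methods the authors trimmed 75-bp reads of poly(A)-selected libraries with Trimmomatic, removed ribosomal reads with SortMeRNA, mapped with STAR and counted Araport11 exons with featureCounts. The submitters' processing notes give Trimmomatic 0.36, STAR 2.5.2b, Subread 1.6.5 and the build TAIR10. Removal of ribosomal reads can lower counts of ribosomal RNA loci. Here all 12 libraries were fitted in 1 model with edgeR 4.0.16 (R 4.3.3; filterByExpr, TMM, robust quasi-likelihood fit, 1 coefficient per group, adjusted p below 0.01), after tests on simulated data. Shares were compared by exact permutation. DESeq2 1.42.0 was an alternative. Nuclear small noncoding RNA genes are 998 loci that RefSeq lists as snoRNA, snRNA, tRNA or rRNA. Stretches of 75 bases were matched exactly on both strands.

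Named are the 10 members with the most counts, called members and the called genes of 4 nuclear lists. Others were chosen after their values were seen (ATMG00690, ATMG00630, ATMG00080, ATMG00510, ATMG01130, AT1G68990 and loci in RefSeq notes). Members and lists were chosen with earlier results of these data known. A grouping by function and settings without the ribosomal RNA loci were not run, because the files and RefSeq do not pair ATMG loci with names. No libraries were counted as duplicates (chi-square per degree of freedom 2.94 to 81.7 within groups). The check of the replicate letters gave r of -0.22 to 0.19 for the same letter and -0.32 to 0.40 for others.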

Additional observations from a re-analysis of the deposited data

How the results depend on the processing

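The values below are counts of members called, with the share of all loci called beside them, or log2 ratios. In OE *APOLO*-1 against WT at 23 °C, 1 member was called. With at least 10 counts in every library 0 were, where 9.64% of all loci were. With only the 6 libraries compared 0 were, where 0.00994% of all loci were. DESeq2 called 3 of 29 (10.3%), where it called 15.6% of all loci. At an adjusted p below 0.05, 4 of 22 (18.2%) were called, where 22.7% of all loci were. With 1 library left out 0 to 5 were called, where 3.10% to 29.3% of all loci were. In WT at 29 °C against OE *APOLO*-1 none was called. With only the 6 libraries 4 of 17 (23.5%) were, where 17.1% of all loci were. At 0.05, 2 of 22 (9.09%) were called, where 17.9% of all loci were. With 1 library left out 0 to 3 were called, where 3.89% to 17.4% of all loci were. ATMG00630, whose calls are not read as a test, was among the called members without WT at 23 °C library A or B. In WT at 29 °C against *vim1-3* none was called. With no filter 1 of 35 was, where 10.2% of all loci were, and with DESeq2 1 of 29, where 17.3% were (ATMG00630 in both). With the 6 libraries 1 of 20 was called, where 29.9% of all loci were, and at 0.05 1 of 22, where 25.9% were. With 1 library left out 0 to 2 were called, where 7.13% to 24.4% of all loci were. ATMG00630 was among the called members of each such fit that had a call, except the fit without *vim1-3* B. The remaining 3 comparisons had 0 called with any 1 library left out, where 0.444% to 34.1% of all loci were.

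Further settings were chosen after seeing the data. With both WT at 23 °C A and *vim1-3* B left out, 24 members were tested. Against WT at 23 °C, 5 (20.8%) were called in OE *APOLO*-1, where 27.8% of all loci were, and 4 (16.7%) in *vim1-3*, where 23.1% were. In OE *APOLO*-1 against *vim1-3* 1 (4.17%) was called, where 5.09% of all loci were. In WT at 29 °C 4 (16.7%) were called against OE *APOLO*-1, where 16.2% of all loci were, and 4 (16.7%) against *vim1-3*, where 18.5% were. ATMG00630 was among the 4 in both, and its calls are not read as a test. With the ATMG total as the scale, 1 of 22 (4.55%) was called in WT at 29 °C against 23 °C, where 20.7% of all loci were. In OE *APOLO*-1 against WT 0 were called, where 10.3% of all loci were. On this scale log2 fold changes turned sign for ATMG00660 at 29 °C against 23 °C (0.22). They also did so in OE *APOLO*-1 against WT at 23 °C for ATMG00690 (0.95) and ATMG01360 (0.83). In each case the cause was not tested.

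With 1 library left out, the log2 ratio of the ATMG share ranged from -1.70 to 0.20 in *vim1-3* against WT at 23 °C, from -1.71 to 0.18 in OE *APOLO*-1 against *vim1-3* and from -0.60 to 1.29 in WT at 29 °C against *vim1-3*, and that of the ATMG to ATCG ratio from -0.16 to 0.12 in OE *APOLO*-1 against *vim1-3*. With both doubted libraries left out it was 0.18 for the share in OE *APOLO*-1 and 1.29 in WT at 29 °C, each against *vim1-3*. All other settings for the share and the ratio kept their direction (79 of 89). With the replicate letter as a block, 1 member was called in OE *APOLO*-1 against WT at 23 °C, ATMG00080 in place of ATMG00660, where 7.86% of all loci were. In the other comparisons 0 were called, where 1.31% to 17.2% of all loci were. Whether the letters pair the samples is not known. Depth limits what 15 members with fewer than 100 counts can show.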
